A study of Mus musculus with 6 samples.

Results

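The genes described here encode the nuclear part of the mitochondrial respiratory chain and of the ATP synthase. They are the protein-coding genes whose symbols start with Ndufa, Ndufb, Ndufc, Ndufs, Ndufv, Uqcr, Uqcc, Atp5 or Cox4 to Cox8, together with Sdha to Sdhd, Cyc1 and Cycs. The rule took 99 of the 55401 genes in the count files, of which 21897 are protein-coding. A further 13 symbols fitted the rule but belonged to pseudogenes or other genes that are not protein-coding. By complex, the 99 genes were 7 core subunits, 29 accessory subunits and 8 assembly factors (Ndufaf) of complex I, 4 subunits of complex II, 9 subunits and 3 assembly factors (Uqcc) of complex III, cytochrome c (Cycs), 20 genes of complex IV and 18 of the ATP synthase. Ndufa4 and Ndufa4l2 carry complex I names but were placed with complex IV, to which the Ndufa4 protein belongs.

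Complexes I and II pass electrons from NADH and succinate to coenzyme Q, complex III passes them to cytochrome c, and complex IV reduces oxygen. Complexes I, III and IV pump protons across the inner mitochondrial membrane, and the ATP synthase uses the return flow to make ATP. All of these except complex II combine nuclear subunits with a few encoded in mitochondrial DNA, and several nuclear subunits exist as tissue-specific paralogues. Macrophages are known to change the balance between respiration and glycolysis with their activation state.

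The study measured poly(A)-selected RNA of RAW264.7 by sequencing, in 3 control siRNA and 3 Nop16 siRNA libraries. RAW264.7 is a mouse macrophage line that came from the ascites of a tumour raised with Abelson leukaemia virus. The genotype tag is WT for the controls and Nop16 KD for the others, and the treatment tag is "no" in all 6. The one treatment text, shared by both groups, describes 20 nM Nop16 siRNA for 3 days, and the sources used here do not give what the control cells received. The question put by the study is what NOP16, a nucleolar protein of ribosome assembly, does in macrophages. The labels do not say whether each replicate was its own culture, and the p-values therefore refer to spread among these libraries alone, part of which may be technical.

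Library totals ran from 15601477 to 23061922 counts, so that 3 counts, taken as the floor, equal 0.13 to 0.192 CPM (counts scaled by library size, with TMM scaling elsewhere in the text). Nop16 itself fell from 17.7, 18.8 and 20.2 CPM in the controls to 3.94, 4.15 and 4.56 CPM, -2.16 on the log2 scale (SE 0.12, edgeR adjusted p = 2.942e-23). All 10 macrophage markers were expressed, with summed levels of 6047 to 6360 CPM in the controls and 9043 to 9449 CPM after Nop16 siRNA. Of the 10, 5 were called higher, 2 lower (Fcgr1 -0.36, Ptprc -0.13) and 3 neither, and Lyz2 alone went from a mean of 1144 to 2934 CPM. Some of the listed markers of T and NK cells (Cd3e, Cd8a, Ncr1), B cells (Pax5), neutrophils (Ltf, Ngp), epithelium (Krt8, Krt18, Krt5, Krt14), fibroblasts (Col1a2, Col3a1, Dcn, Lum), testis germ cells (Prm1, Tnp1) and erythroid cells (Hbb-bs, Alas2) had no count in any library. Other genes of these lists were detected: Lck (mean 5.38 CPM in the controls and 4.59 CPM after Nop16 siRNA), Csf3r (12.5 and 14.6 CPM), S100a8 (1.36 and 0.884 CPM) and Pdgfra (1.28 and 1.25 CPM) could be tested, and none of them was called. Summed over the list, T and NK cell markers lay at 4.65 to 6.02 CPM in the controls and 4.45 to 5.10 CPM after Nop16 siRNA, neutrophil markers at 11.7 to 16.2 CPM and 14.5 to 16.7 CPM, and fibroblast markers at 1.23 to 1.64 CPM and 1.21 to 1.42 CPM. Further listed genes, such as Cd4, Ms4a1, Ddx4 and Hba-a1, had a few counts and were not tested. B cell markers summed to 0.0456 to 0.151 CPM and 0.0576 to 0.326 CPM, and epithelial markers to 0 to 0.0502 CPM and 0 to 0.0543 CPM. Testis germ cell markers summed to 0.1005 to 0.172 CPM and 0 to 0.163 CPM, and erythroid markers to 0 to 0.182 CPM and 0 to 0.0576 CPM. Their part in the results was not tested. Fewer cells of a type and less RNA per cell cannot be told apart in such bulk samples.

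Of the 99 genes, 93 had enough counts to be tested. With edgeR's quasi-likelihood test and a Benjamini-Hochberg adjusted p below 0.05 over all 14269 genes tested, 33 fell after Nop16 siRNA, 12 rose and 48 were not called. Among all genes tested, 22.4% were called lower and 23.0% higher, against 35.5% and 12.9% of these genes. The falls were mostly small: only Cox6a2, Cox7a2l and Atp5g2 were more than 1.5-fold lower, and the median log2 fold change was -0.05, beside -0.0002 for all genes tested. In 33 genes every control library lay above every Nop16 siRNA library and in 13 the reverse held, where 26.2% and 26.3% of all genes tested did so. Most of these transcripts are abundant, and the 59 with a mean of at least 50 CPM divided into 27 lower (45.8%), 7 higher (11.9%) and 25 not called, beside 32.1% lower and 36.6% higher of all 4274 genes at that level. These shares are descriptions of a chosen list and carry no test.

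The split of the calls moved with the scaling and with gene length. Scaling by library size alone gave 7 higher and 39 lower, where 20.7% and 24.3% of all genes were called. Removal of a trend with gene length gave 20 higher and 32 lower, beside 23.2% and 22.1% of all genes, and removal of length and GC trends gave 18 higher and 32 lower, beside 23.8% and 22.5%. DESeq2 called 8 higher and 27 lower, beside 18.2% and 17.9% of the genes it tested. Tested against a minimum fold of 1.2 (glmTreat in edgeR), 3 were higher and 7 lower, beside 7.77% and 8.78% of all genes. The tested genes of the chain are short, with a median exonic length of 1718 bases against 3760 for all genes tested. Without control replicate 2, 7 genes were called higher and 31 lower, beside 20.5% and 20.2% of all genes. One further caution concerns Atp5o, for which the annotation holds a second, read-through gene model (ENSMUSG00000116933). On the minus strand it starts within Atp5o, and it also overlaps Donson. All of its exonic length lies in other genes on the same strand, the fragments of Atp5o were counted for both, and without it 32 of 92 genes were lower.

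**Figure D1:**
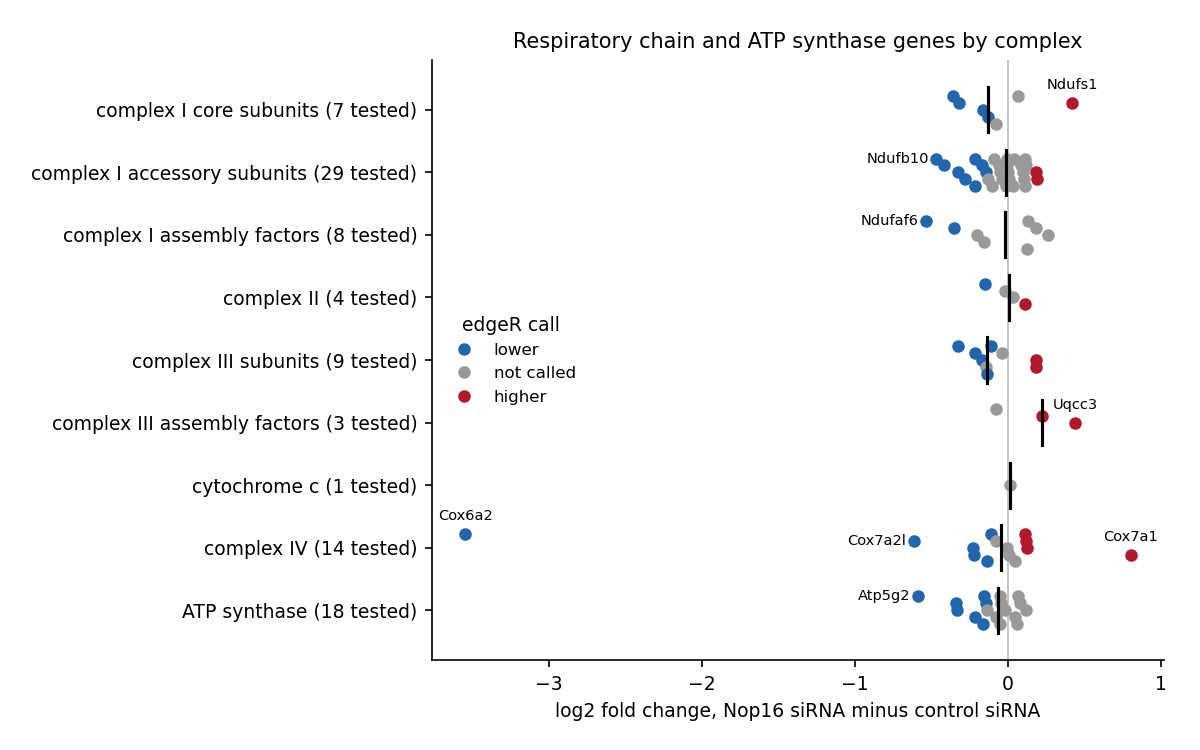
Log2 fold change (x axis, Nop16 siRNA minus control siRNA) of the 93 tested genes in rows by complex; each point is a gene, coloured by its edgeR call, and black bars are row medians. Most points lie within a narrow band around 0, with Cox6a2 at -3.54 and Cox7a1 at 0.80 as the extremes.

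Promoters of nuclear respiratory genes are known for binding sites of NRF1, of the ETS factor GABP (GABPA with a beta subunit) and of YY1, which is why 6 windows are printed here. They belong to the c-subunit paralogues Atp5g2, which fell, and Atp5g3, which was not called, to Cox7a2l, which had the second largest fall, to the ubiquitous paralogue Cox6a1 and to cytochrome c and the complex III hinge gene Uqcrh. RefSeq start sites on GRCm38.p6 were available for 80 of the 99 genes, and Cox6a2 was not among them. Each line gives the 120 bases before the start, 5′ to 3′ on the gene's strand. Capitals mark a match on either strand to the NRF1 form GCATGCGC, to the ETS site CCGGAAG or to the CCAAT box.
Atp5g2, chr15:102671048-102671167, minus strand: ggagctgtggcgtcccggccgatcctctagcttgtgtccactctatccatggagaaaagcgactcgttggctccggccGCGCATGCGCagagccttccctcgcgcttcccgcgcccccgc
Atp5g3, chr2:73911327-73911446, minus strand: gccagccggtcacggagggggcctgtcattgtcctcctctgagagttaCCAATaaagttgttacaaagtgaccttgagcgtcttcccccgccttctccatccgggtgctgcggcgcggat
Cox7a2l, chr17:83514334-83514453, minus strand: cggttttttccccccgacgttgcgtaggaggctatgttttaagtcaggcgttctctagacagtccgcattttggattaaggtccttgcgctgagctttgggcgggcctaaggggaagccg
Cycs, chr6:50566570-50566689, minus strand: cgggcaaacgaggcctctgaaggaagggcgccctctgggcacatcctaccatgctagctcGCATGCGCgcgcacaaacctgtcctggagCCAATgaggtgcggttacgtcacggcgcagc
Cox6a1, chr5:115348959-115349078, minus strand: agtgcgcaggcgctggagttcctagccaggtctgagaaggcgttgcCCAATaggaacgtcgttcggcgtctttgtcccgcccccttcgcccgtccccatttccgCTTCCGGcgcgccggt
Uqcrh, chr4:116075071-116075190, minus strand: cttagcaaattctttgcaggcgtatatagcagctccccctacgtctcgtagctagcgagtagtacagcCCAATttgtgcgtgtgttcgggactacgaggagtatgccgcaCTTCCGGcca

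The Atp5g2 window held the NRF1 form on both strands, at 42 and 40 bases before the start and overlapping. That of Atp5g3 held a CCAAT box at 72 bases and no NRF1 match. Cycs and Cox6a1, neither of them called, also had the NRF1 form. It lay at 60 bases in Cycs and, upstream of the printed bases, at 162 and 160 in Cox6a1. None of the searched motifs occurred in the window of Cox7a2l. The ETS site lay 16 bases before the start of Cox6a1 and 10 before that of Uqcrh, in both on the opposite strand. Over the whole RefSeq windows, from 250 bases before to 50 after the start and on both strands, the ETS site occurred in 18 of 80 genes (22.5%), against 9.93% of 27025 genes. Those 27025 are all genes with a window, not chosen by coding status or expression, whereas the 80 are all protein-coding. The NRF1 form occurred in 13 (16.2%, against 3.05%) and the YY1 motif AAGATGGC in 12 (15%, against 3.19%), and no motif searched contains another. The CCAAT box stood in 37 (46.2%, against 41.1%) and TATAAA in 7 (8.75%, against 15.7%). Of the tested genes with an NRF1, ETS or YY1 match, 13 of 36 fell and 3 rose (median -0.05 on the log2 scale), and of 41 without any, 14 fell and 8 rose, with a median of -0.02. For the NRF1 form alone, 5 of 13 tested genes with a match fell and 1 rose (median 0.015). Of 64 without it, 22 fell and 10 rose (median -0.045). Among all genes tested, 22.4% were called lower and 23.0% higher. A match is only a run of letters, and binding was not measured.

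Complex I, which oxidises NADH, had 36 core and accessory subunits in the list. Of these, 12 fell (33.3%) and 3 rose (8.33%), with a median log2 fold change of -0.04. Among all genes tested, 22.4% were called lower and 23.0% higher. Of the 7 core subunits, which hold the flavin and the iron-sulphur clusters, 4 fell and 1 rose (median log2 fold change -0.13). Ndufs8, an iron-sulphur subunit, measured 72.1, 73.9 and 75.3 CPM in the controls and 58.8, 55.7 and 58.4 CPM after Nop16 siRNA (log2 fold change -0.36, SE 0.05, edgeR adjusted p = 1.462e-08). Ndufv2, the subunit next to the flavin-bearing one, measured 86.0, 85.9 and 82.8 CPM against 66.9, 64.1 and 72.9 CPM (-0.32, SE 0.05, edgeR adjusted p = 1.141e-07). In both genes all controls lay above all Nop16 siRNA libraries. The opposite order held for Ndufs1, the largest core subunit, at 89.99, 85.0 and 87.8 CPM in the controls and 121, 118 and 112 CPM after Nop16 siRNA (0.42, SE 0.04, edgeR adjusted p = 8.197e-13). Ndufs7 (-0.16) and the flavin subunit Ndufv1 (-0.13) were also called lower, but each call was lost without control replicate 3 or without Nop16 replicate 2, at adjusted p from 0.05315 to 0.2038 for Ndufs7 and from 0.05996 to 0.1031 for Ndufv1. Ndufs3, another core subunit, was not called (0.07).

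Among the 29 accessory subunits, which surround the core, 8 fell, 2 rose and 19 were not called (median -0.01). Ndufb10 had the largest fall, from 64.1, 62.1 and 62.9 CPM to 43.6, 47.5 and 45.6 CPM (a log2 change of -0.47, SE 0.05, edgeR adjusted p = 7.083e-11). Ndufa6 fell from 107, 105 and 104 CPM to 81.0, 76.2 and 79.3 CPM (-0.42, SE 0.04, edgeR adjusted p = 2.230e-12). For Ndufb11 the values were 38.1, 43.6 and 41.0 CPM against 30.9, 33.6 and 33.3 CPM (-0.33, SE 0.07, edgeR adjusted p = 4.325e-05). The 2 groups did not overlap in any of these. In the main fit, all called Ndufb genes, which encode subunits of the membrane arm, were lower: Ndufb10, Ndufb11, Ndufb6 (-0.28), Ndufb5 (-0.22) and Ndufb8 (-0.14). These were 5 of 10 tested, beside 22.4% lower among all genes tested. Ndufa10 (-0.17) and the acyl carrier protein Ndufab1 (-0.21) completed the falls. With the length trend, or length and GC trends, removed, Ndufb6 lost its call and Ndufb3 (0.09 in the main fit) was called higher. Ndufb8 lost its call without control replicate 2 (adjusted p = 0.06742), and Ndufab1 without control replicate 1 or Nop16 replicate 3 (0.07306 to 0.07603).

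The 2 accessory subunits called higher were Ndufv3 (65.6, 55.6 and 61.0 CPM against 71.7, 66.6 and 69.9 CPM, log2 fold change 0.19) and Ndufs5 (43.1, 43.0 and 39.4 CPM against 47.8, 46.5 and 48.8 CPM, 0.19). Each call could be ended by leaving out 1 library: that of Ndufv3 was lost without control replicate 2 (adjusted p = 0.06094) and that of Ndufs5 without control replicate 3 (0.07061). With the length trend removed, 8 accessory subunits were called higher. Ndufa2, the most abundant per length, was not called at 55.4, 53.8 and 62.2 CPM against 59.8, 55.0 and 60.4 CPM.

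Of the 8 Ndufaf factors, which help to build complex I, 2 fell (25%) and none rose at this threshold (median -0.02). The share that fell lay near the 22.4% of all genes tested, of which 23.0% were called higher. Ndufaf6 measured 3.88, 3.70 and 3.57 CPM in the controls and 2.33, 2.36 and 2.99 CPM after Nop16 siRNA (log2 fold change -0.53, SE 0.21, edgeR adjusted p = 0.03534). Ndufaf5 measured 10.6, 8.39 and 9.60 CPM against 5.62, 8.41 and 8.15 CPM (-0.35, SE 0.14, edgeR adjusted p = 0.02792), with the groups overlapping. Both calls were fragile. Ndufaf5 was lost without control replicate 1, control replicate 3 or Nop16 replicate 1 (adjusted p 0.06317 to 0.2602). The call of Ndufaf6 ended on removal of control replicate 1, control replicate 2, Nop16 replicate 1 or Nop16 replicate 2 (0.06292 to 0.1044), and DESeq2 called neither. Ndufaf8, the most abundant per length, stood at 11.5, 8.86 and 11.8 CPM against 10.7, 8.87 and 8.36 CPM and was not called.

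In complex II, or succinate dehydrogenase, 1 of 4 genes fell (25%) and 1 rose (25%). These shares lay near the 22.4% lower and 23.0% higher of all genes tested. Sdha, the flavoprotein that binds succinate, stood at 193, 187 and 187 CPM in the controls and 192, 187 and 181 CPM after Nop16 siRNA (log2 fold change -0.02). The membrane anchor Sdhc stood at 108, 112 and 106 CPM against 112, 107 and 115 CPM (0.03). Neither was called, and in both the groups overlapped. The iron-sulphur subunit Sdhb fell from 75.5, 78.9 and 85.2 CPM to 70.4, 70.3 and 75.4 CPM (-0.15, SE 0.05, edgeR adjusted p = 0.01117). The other anchor, Sdhd, rose from 85.02, 91.8 and 90.9 CPM to 95.5, 100.8 and 92.8 CPM (0.11, SE 0.04, edgeR adjusted p = 0.03751). Each of these calls was lost in 2 of the 6 fits that left a library out: Sdhb without control replicate 3 or Nop16 replicate 2 (adjusted p 0.05238 to 0.1394), Sdhd without control replicate 1 or Nop16 replicate 2 (0.2212 to 0.2313).

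In complex III, which passes electrons from coenzyme Q to cytochrome c, 5 of 9 subunits fell (55.6%) and 2 rose (22.2%), with a median of -0.13. Of all genes tested, 22.4% were called lower and 23.0% higher, so the share that rose lay near that of all genes. Uqcrh, the hinge protein that holds cytochrome c1, fell from 61.1, 62.1 and 59.9 CPM to 49.6, 48.6 and 48.4 CPM (a log2 change of -0.32, SE 0.05, edgeR adjusted p = 6.934e-07). Cyc1, cytochrome c1 itself, fell from 125, 124 and 124 CPM to 111, 106 and 105 CPM (-0.21, SE 0.04, edgeR adjusted p = 6.360e-06). The core protein Uqcrc2 fell from 133, 132 and 125 CPM to 114, 117 and 118 CPM (-0.17, SE 0.04, edgeR adjusted p = 2.960e-04). In all of these the groups were separate. The Rieske iron-sulphur protein Uqcrfs1 (-0.13) and the core protein Uqcrc1 (-0.11) were lower by less, and lost their calls without control replicate 1 or Nop16 replicate 3 (Uqcrfs1, adjusted p 0.09089 to 0.2341) and without Nop16 replicate 1 or Nop16 replicate 2 (Uqcrc1, 0.05195 to 0.09383).

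The rises in complex III were in small subunits. Uqcr10, the most abundant subunit per length, rose from 54.0, 55.4 and 55.8 CPM to 62.7, 60.9 and 63.9 CPM (a log2 change of 0.18, SE 0.05, edgeR adjusted p = 2.589e-03). Uqcr11 measured 26.4, 24.1 and 23.5 CPM against 30.8, 26.6 and 26.9 CPM (0.19, SE 0.08, edgeR adjusted p = 0.04609), a call that was lost without control replicate 2, control replicate 3 or Nop16 replicate 1 (adjusted p 0.1191 to 0.2875) and with 8 of the other settings. Of the 3 assembly factors 2 rose, beside 23.0% higher among all genes tested. Uqcc3 rose from 14.2, 14.7 and 15.2 CPM to 20.6, 18.4 and 20.9 CPM (0.44, SE 0.09, edgeR adjusted p = 3.406e-05), with no overlap. Uqcc1 rose from 26.0, 24.7 and 25.4 CPM to 29.9, 28.2 and 30.7 CPM (0.22, SE 0.07, edgeR adjusted p = 0.01094) and lost its call without Nop16 replicate 3 (0.06689). Uqcc2, the most abundant of the 3 per length, was not called at 59.2, 51.7 and 57.3 CPM against 52.2, 49.3 and 57.4 CPM. Cycs, the mobile carrier between complexes III and IV, stood at 103, 95.2 and 101.3 CPM against 103, 100.2 and 100.1 CPM and was not called (0.01).

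Complex IV, cytochrome c oxidase, held both the largest fall and the largest rise, and both were in genes known as muscle isoforms. Cox6a2, the heart and skeletal muscle form of subunit 6A, fell from 9.71, 8.13 and 8.34 CPM to 0.905, 0.749 and 0.597 CPM. In counts this was 213, 189 and 166 against 14, 13 and 11, so that every library stayed above the floor of 3 counts and the groups lay far apart. On the log2 scale the change was -3.54 (SE 0.22, edgeR adjusted p = 1.589e-21), which left 8.57% of the control level (95% interval 6.35% to 11.6%), and it ranged from -3.69 to -3.40 over all alternatives. Cox6a2 lies at chr7:128205435-128206387 on the minus strand (GRCm38), within the span of Itgad on the plus strand. Cox7a1, the muscle form of subunit 7A, rose from 3.42, 2.88 and 2.61 CPM to 4.46, 4.26 and 6.79 CPM (0.80, SE 0.19, edgeR adjusted p = 4.658e-04), and its log2 fold change was 0.55 in the lowest of the alternatives.

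Most muscle markers were at 0. Of 8 muscle markers, Ckm, Myh7, Myh6, Mb and Actc1 had no count in any library, and only Tnni2 was abundant enough to test (10.7, 11.6 and 12.4 CPM against 8.34, 12.8 and 8.80 CPM, not called). Their summed level was 10.7 to 12.5 CPM in the controls and 8.34 to 12.9 CPM after Nop16 siRNA.

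Cox7a2l, a relative of subunit 7A known as a factor that joins complexes III and IV into supercomplexes, had the lowest adjusted p of all the genes of the chain. It fell from 289.6, 287 and 295 CPM to 187, 190.2 and 193 CPM (a log2 change of -0.61, SE 0.03, edgeR adjusted p = 2.257e-24), with no overlap. Among the subunits that every tissue uses, Cox5b fell from 123, 115 and 123 CPM to 105, 99.5 and 104 CPM (-0.23, SE 0.04, edgeR adjusted p = 4.283e-06). Cox4i1, the ubiquitous form of subunit 4, fell from 374, 372 and 373 CPM to 327, 308 and 326 CPM (-0.22, SE 0.03, edgeR adjusted p = 1.103e-08). Cox8a, the most abundant gene of complex IV per length, fell from 178, 170.5 and 186 CPM to 167, 159.7 and 160.1 CPM (-0.14, SE 0.04, edgeR adjusted p = 1.450e-03), but not once a trend with gene length was removed. Cox7c (-0.11, edgeR adjusted p = 0.04979) lost its call in 5 of the 6 fits that left a library out, at adjusted p from 0.05152 to 0.2862. Control replicate 1 was the only library whose removal kept it.

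The other rises in complex IV were small. Cox7b (0.13), Ndufa4 (0.12) and Cox6b1 (0.11) were each higher in all Nop16 siRNA libraries than in any control: Cox7b measured 73.6, 70.8 and 71.8 CPM against 78.9, 80.4 and 76.6 CPM, and Ndufa4 74.2, 69.6 and 72.4 CPM against 79.3, 74.9 and 80.2 CPM. Cox6b1 measured 130.0, 123 and 129 CPM against 142, 135 and 134 CPM. All 3 calls were lost without control replicate 2 and with library size scaling. Other libraries also ended them: control replicate 3 and Nop16 replicate 2 for Cox7b (adjusted p over its libraries 0.05691 to 0.09228), Nop16 replicate 1 for Cox6b1 (0.09276 to 0.1164), and control replicate 3, Nop16 replicate 1 and Nop16 replicate 3 for Ndufa4 (0.06794 to 0.1723).

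The remaining genes of complex IV had few counts or none. Cox6b2, Cox7b2, Cox8b and Cox8c, forms of testis, heart or muscle, had no count in any library, which allows up to 0.13 to 0.192 CPM by counting error alone. Cox4i2, known as the hypoxia-linked form of subunit 4, had 8, 7 and 9 counts against 3, 2 and 6. Ndufa4l2, a hypoxia-linked relative of Ndufa4, had 2, 10 and 0 counts against 2, 3 and 0. Both were too low to test.

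Within paralogue groups, shares were taken from CPM per kb so that genes of different length could be compared. Cox6a2 made up 6.50% ± 0.447 (SD, n = 3) of the Cox6a pair in the controls and 0.573% ± 0.102 after Nop16 siRNA. Cox6a1 carried the rest and was not called, at 133, 129 and 126 CPM against 139, 130.0 and 133 CPM. In the Cox7a group, Cox7a2l went from 68.6% ± 0.230 to 57.7% ± 1.40, and Cox7a2 from 29.4% ± 0.246 to 38.0% ± 0.744, although the level of Cox7a2 was not called different (78.7, 79.5 and 80.5 CPM against 80.1, 76.4 and 83.3 CPM). Cox7a1 went from 1.94% ± 0.278 to 4.32% ± 1.02 of the same group. Cox4i1 made up 99.8% and 99.9% of its pair and Ndufa4 99.7% and 99.8%, while Cox6b1, Cox7b and Cox8a were the only forms with any count. These shares are descriptions without a test.

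**Figure D2:**
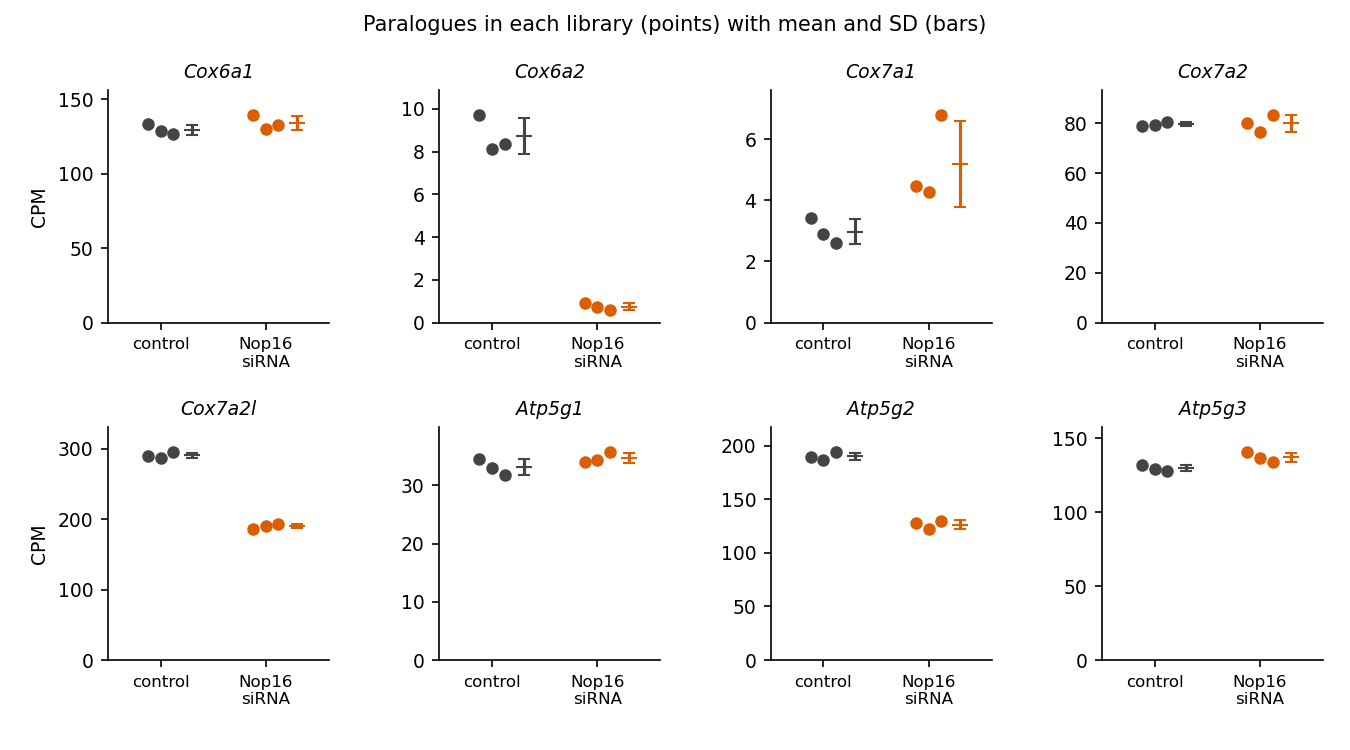
CPM (y axis, from 0) of paralogues of cytochrome c oxidase and of the ATP synthase c subunit in the 3 control and 3 Nop16 siRNA libraries; points are libraries and bars the mean and SD. Cox6a2, Cox7a2l and Atp5g2 were lower in all Nop16 siRNA libraries, Cox7a1 was higher, and Cox6a1, Cox7a2 and Atp5g1 overlapped.

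The ATP synthase had 7 falls (38.9%) and no called rise among 18 genes (median -0.07), beside 22.4% lower and 23.0% higher among all genes tested. Both the 7 and the 18 include the read-through model of Atp5o, for which fragments of Atp5o were counted again. Atp5g2, one of the genes for the identical c subunit of the membrane ring, fell from 189, 187 and 194 CPM to 127.5, 122 and 129.6 CPM (a log2 change of -0.59, SE 0.04, edgeR adjusted p = 2.332e-21). Its paralogues encode the same mature protein and were not called: Atp5g3 stood at 132, 129.5 and 128 CPM against 140.5, 137 and 134 CPM, and Atp5g1 at 34.6, 33.0 and 31.9 CPM against 34.1, 34.4 and 35.7 CPM. As a share of the group in CPM per kb, Atp5g2 went from 63.1% ± 0.750 (SD, n = 3) to 51.9% ± 0.945, Atp5g3 from 33.1% ± 0.594 to 43.3% ± 1.02, and Atp5g1 from 3.76% ± 0.161 to 4.86% ± 0.142. Pseudogenes that resemble Atp5g1 held counts equal to 95.05% of its own, so that its level is uncertain.

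Atp5h, a subunit of the peripheral stalk, fell from 116, 112 and 115 CPM to 91.6, 91.7 and 87.6 CPM (a log2 change of -0.34, SE 0.04, edgeR adjusted p = 3.115e-10). Atp5c1, the rotating central stalk, fell from 173, 174 and 166 CPM to 137, 138 and 131 CPM (-0.34, SE 0.04, edgeR adjusted p = 1.042e-11). Atp5b, the catalytic beta subunit and the most abundant gene of the enzyme per length, fell from 608, 586 and 588 CPM to 521, 499 and 518 CPM (-0.21, SE 0.03, edgeR adjusted p = 7.439e-09). In all of these the groups were separate. The peripheral stalk genes Atp5f1 (-0.16) and Atp5o (-0.16) were also lower, as was the read-through model of Atp5o (-0.14), whose call was lost without control replicate 2 or Nop16 replicate 2 (adjusted p 0.0505 to 0.06588). Of the exonic length of Atp5o, 35.6% faces a gene on the other strand.

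**Figure D3:**
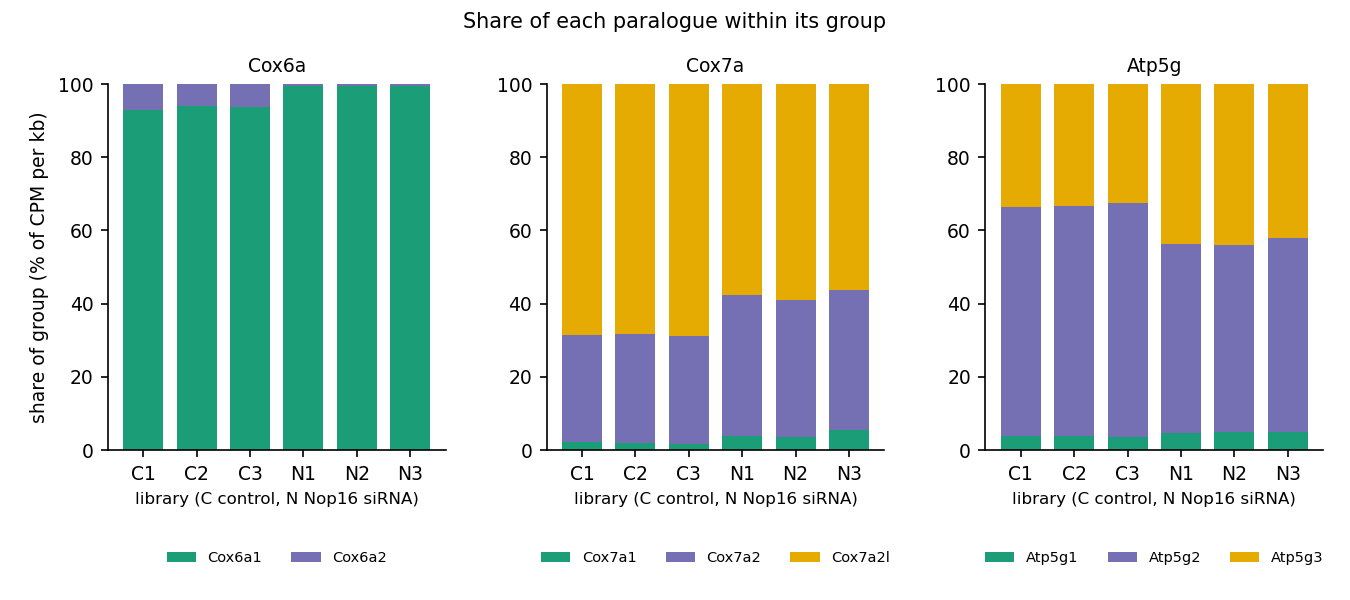
Share of each paralogue in its group (y axis, percent of CPM per kb) in control (C1 to C3) and Nop16 siRNA (N1 to N3) libraries. The Cox6a2 share fell from 6.50% to 0.573%, Cox7a2l from 68.6% to 57.7% and Atp5g2 from 63.1% to 51.9% in group means.

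The read-through model of Atp5o was left out of all sums and library shares. Summed over the other 98 genes, the level was 7878 ± 100.5 CPM (SD, n = 3) in the controls and 7325 ± 132 CPM after Nop16 siRNA, or 93.0% of the control mean. In shares of the whole library this was 0.783% to 0.802% against 0.713% to 0.738%. By complex, the sum after Nop16 siRNA was 89.9% of the control mean for complex IV, 90.4% for the ATP synthase, 93.0% for complex III subunits, 95.5% for complex I subunits and 99.9% for complex II. It lay above the control mean in the remaining classes, at 101.8% for complex I assembly factors, 106.7% for complex III assembly factors and nearer to it for cytochrome c (103.4, 95.16 and 101.3 CPM in the controls, 102.6, 100.2 and 100.1 CPM after Nop16 siRNA). The libraries of the 2 groups did not overlap for the subunits of complexes I and III, complex IV and the ATP synthase, and overlapped for complex II, cytochrome c and both groups of assembly factors. Sums are led by abundant genes, and 3 against 3 libraries were given no test here.

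**Figure D4:**
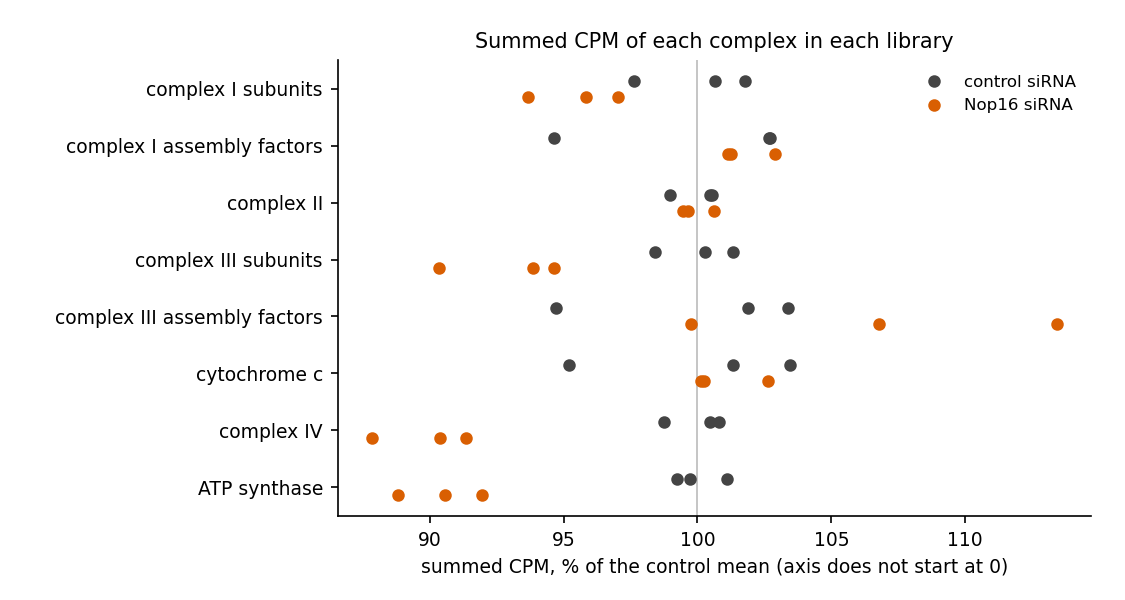
Summed CPM of each complex in each library, as a percentage of the control mean (x axis, which does not start at 0); grey points are control and orange points Nop16 siRNA libraries. Complex IV and the ATP synthase lay furthest below the controls, and complex II overlapped them.

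The mitochondrially encoded subunits, made inside the organelle, did not move as one. Of 13, 6 fell (46.2%) and 3 rose (23.1%), beside 22.4% lower and 23.0% higher among all genes tested. The complex I genes mt-Nd6 (17.6 to 19.5 CPM in the controls, 12.1 to 14.99 CPM after Nop16 siRNA, log2 fold change -0.45), mt-Nd3 (-0.32) and mt-Nd1 (-0.25) fell, while mt-Nd5 (1367 to 1410 CPM against 1625 to 1771 CPM, 0.30), mt-Nd4 (0.19) and mt-Nd4l (0.15) rose. The falls also took in mt-Co2 of complex IV (-0.24), mt-Atp6 of the ATP synthase (-0.16) and mt-Cytb of complex III (-0.14), although mt-Atp6 lost its call once the length trend, or length and GC trends, were removed. The catalytic subunit mt-Co1 was not called (-0.01, 16560 to 16820 CPM against 16160 to 16930 CPM), nor was mt-Atp8, the most abundant per length. Neighbouring mitochondrial genes overlap, and a fragment could be counted for both. With length and GC trends removed, 5 of the 13 were called higher.

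Transcription regulators of respiratory genes were lower where they were called: 8 of 13 tested fell and none rose, with a median log2 fold change of -0.19. Among all genes tested, 22.4% were called lower and 23.0% higher. Ppargc1b, a coactivator of mitochondrial biogenesis, fell from 7.89, 7.14 and 7.54 CPM to 4.98, 3.46 and 4.78 CPM (-0.77, SE 0.16, edgeR adjusted p = 3.224e-05). Hcfc1, a cofactor of GABP and the most abundant regulator per length, fell from 177, 168 and 171 CPM to 126, 132 and 134 CPM (-0.40, SE 0.04, edgeR adjusted p = 4.175e-14). The GABP subunit genes Gabpa (-0.36), Gabpb2 (-0.32) and Gabpb1 (-0.31) fell too, as did Tfam (-0.25), which packages mitochondrial DNA, Nrf1 (-0.19) and Yy1 (-0.17). Nrf1 overlapped between the groups, and leaving out control replicate 1, control replicate 2, Nop16 replicate 2 or Nop16 replicate 3 ended its call (adjusted p 0.09771 to 0.1557), and Tfam lost its call without Nop16 replicate 1 (0.1023). Nrf1 was also not called by DESeq2 or with the length trend, or length and GC trends, removed. Ppargc1a had no count. Whether these changes bear on the respiratory genes was not tested.

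Assembly factors outside the naming rule moved both ways. Among all genes tested, 23.0% were called higher and 22.4% lower, and the complex IV list, at 24% and 20%, lay near those shares. For complex IV, 6 of 25 rose and 5 fell: the copper chaperone Sco2 rose from 12.8, 13.2 and 13.4 CPM to 19.9, 18.6 and 17.7 CPM (a log2 change of 0.51) and Cox19 rose (0.37), while Coa4 fell from 7.80, 6.93 and 9.60 CPM to 4.85, 5.24 and 6.19 CPM (-0.57). Higd2a, the most abundant per length, rose by 0.21. Sco1, the relative of Sco2, was lower by -0.34, a call lost without control replicate 1 or Nop16 replicate 2 (adjusted p 0.05367 to 0.1066). For complex I, 2 of 10 tested rose, Tmem126b (0.45) and Acad9 (0.18), and Nubpl fell (-0.32). Acad9 lost its call without control replicate 3 or Nop16 replicate 3 (0.05231 to 0.07323), and Nubpl without control replicate 2, Nop16 replicate 1 or Nop16 replicate 3 (0.05686 to 0.1237). For complex II, Sdhaf2, which puts flavin on Sdha, rose from 34.3, 37.9 and 34.6 CPM to 46.0, 49.1 and 49.96 CPM (0.44, edgeR adjusted p = 1.567e-08) as 1 of 4. One of 4 in each of the other lists was called, the haem lyase Hccs for complex III (0.20) and Fmc1 for the ATP synthase (-0.42). Fmc1 lost its call without control replicate 2 (0.06559) and with the length trend removed, and Hccs in all fits that left a library out except that without control replicate 3 (0.05529 to 0.1466).

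In the coenzyme Q pathway, 3 of 13 genes rose (23.1%) and 1 fell (7.69%), beside 23.0% higher and 22.4% lower among all genes tested. Coq10b, a coenzyme Q binding protein, rose from 6.29, 8.52 and 7.09 CPM to 11.95, 11.8 and 11.5 CPM (a log2 change of 0.68, edgeR adjusted p = 5.453e-06), and the kinase-like Coq8a rose from 6.66, 6.97 and 7.34 CPM to 8.66, 10.2 and 9.67 CPM (0.45). Its relative Coq8b was lower (-0.25), with overlapping groups and a call lost without control replicate 1, control replicate 2, Nop16 replicate 2 or Nop16 replicate 3 (adjusted p 0.07082 to 0.2062). Of 7 other enzymes that feed electrons to coenzyme Q, 3 fell and none rose: the flavoprotein Etfa (-0.23), Dhodh of pyrimidine synthesis (-0.26) and Gpd2 of the glycerol phosphate shuttle (-0.18). Dhodh lost its call without any one of the 6 libraries (0.07335 to 0.1372), and Gpd2 without control replicate 2, Nop16 replicate 1 or Nop16 replicate 3 (0.07732 to 0.1873). Over all these pathway lists, 16 of 93 tested genes rose and 25 fell, beside 23.0% higher and 22.4% lower among all genes tested.

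**Figure D5:**
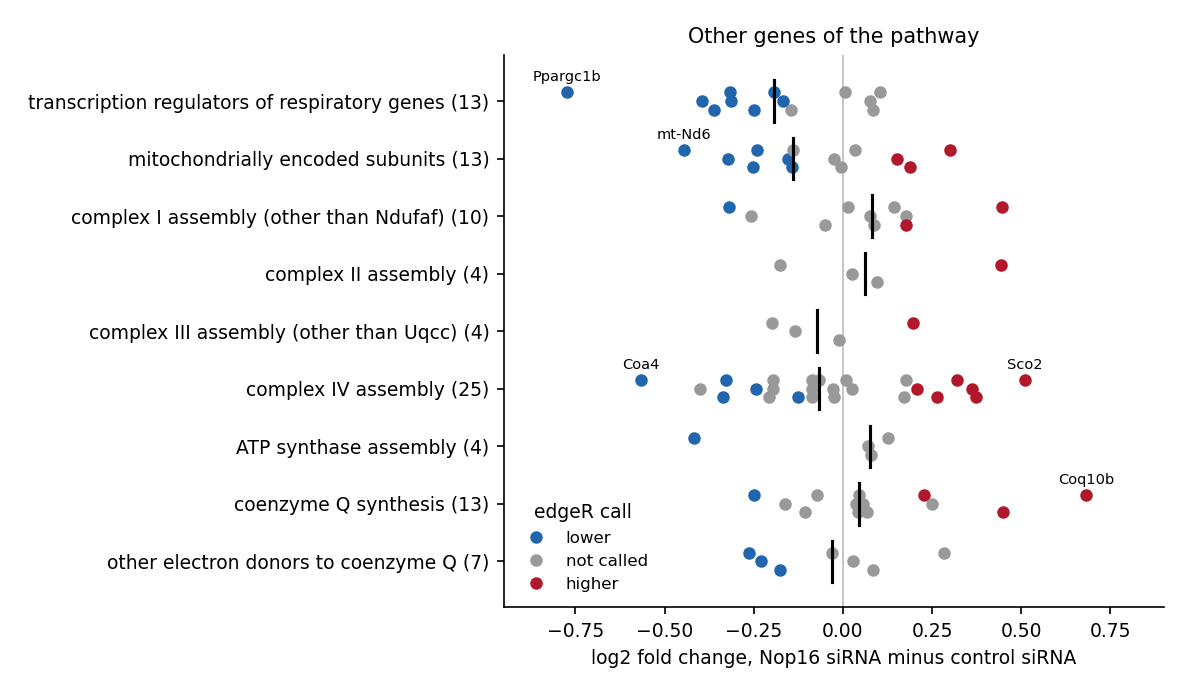
Log2 fold change (x axis, Nop16 siRNA minus control siRNA) of the other genes of the pathway in rows by list, with the number tested in parentheses; points are genes coloured by edgeR call and black bars are medians. Ppargc1b lies at -0.77 and Coq10b at 0.68, and the called regulators all lie below 0.

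Many of these genes have processed copies elsewhere in the genome, and multi-mapped fragments were counted at every place. Of the 99 genes, 45 resembled at least 1 of 142 annotated pseudogenes. In 11 the pseudogenes held counts above 10% of those of the gene, up to 95.05% for Atp5g1 and 88.1% for Ndufa12, with 25.7% for Ndufb4, 24.9% for Atp5l and 17.35% for Atp5h. Of the 26 pseudogenes tested, 3 were lower and 1 higher. Antisense overlap covered 39.0% of the exonic length of Ndufb6 and 65.65% of Ndufaf2, and the counting used strand.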

How the data were processed

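The deposited files hold raw counts of fragments per gene, made with featureCounts 2.0.1 on Ensembl release 101 models of GRCm38, per the file headers. Strand setting 2 and a minimum overlap of 10 bases were used, and multi-mapped fragments and fragments overlapping several genes were counted for each place. The submitters' processing notes also list Trim Galore and HISAT2 2.2.1. Symbols and biotypes came from GENCODE mouse release 21 and matched 55141 of 55401 identifiers. CPM were computed here from the deposited counts with TMM scaling.

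Groups were compared with edgeR 4.0.16 (R 4.3.3; quasi-likelihood, robust, filterByExpr, adjusted p below 0.05 over all genes tested). SEs and intervals come from that fit and include the spread between libraries. Alternatives used DESeq2 1.42.0, limma 3.58.1 (voom), other scalings and filters, protein-coding genes only, robust dispersion off, a replicate block, a length trend, a minimum fold of 1.2 and each library left out. Removal of length and GC trends together was added after the data were seen. Replicates differed by more than sampling noise (chi-square over its degrees of freedom 2.457 to 3.005 in pairs from 1 group). The floor of 3 counts covers counting error only.

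On simulated counts for 14046 genes, 46% of 1.2-fold changes were called by edgeR, 98% of those of 1.5-fold, and 100% of those of 2-fold or 3-fold. Of its 177 calls, 5 were false. Only 50 genes were changed at each fold, none below 5 CPM in the controls. In the data themselves 45.4% of genes were called, so these rates need not hold for them. Pseudogenes were matched with BLAST 2.17.0 (85% identity over 50% of their length). Promoter sequences are RefSeq windows on GRCm38.p6. The genes and lists were chosen with earlier results of these data known. Values in every library are given for the most abundant gene per length in each class, for up to 3 of the largest called rises and falls of a class, and for complex II, cytochrome c and paralogue groups; of each pathway list, up to 2 called rises and falls and the most abundant gene are named, with all mitochondrially encoded subunits. Some genes that this rule takes are not reported here. Other called genes are named with their log2 fold change, and the called regulators and electron donors beyond that limit were named after their values were seen.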

Additional observations from a re-analysis of the deposited data

How the results depend on the processing

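Of the 33 genes called lower, 7 (Atp5c1, Atp5g2, Atp5h, Cox6a2, Cox7a2l, Ndufa6 and Ndufb10) were lower under every alternative run, and 20 under every one but the minimum fold. Tested against a minimum fold of 1.2, 3 members were higher and 7 lower (7.77% and 8.78% of all genes), with 0, 2, 0, 0, 0, 2 and 3 lower in complex I core, accessory and assembly genes, complex II, complex III subunits, complex IV and the ATP synthase, 0 higher in complex I accessory genes, complex II and complex III subunits, 1 higher in complex III assembly factors and in complex IV, and 4 higher and 4 lower in the pathway lists. DESeq2 called 2 complex I core genes and 0 complex I assembly factors lower, and 0, 1 and 2 genes higher in complexes II, III and IV. Library size scaling left 7 members higher (0, 1 and 1 in complexes II, III and IV). Complex II had 0 higher and complex III 1 higher with upper quartile scaling, no filter or protein-coding genes only, and complex III 1 with limma-voom or robust dispersion off. A filter of 5 CPM left 1 complex I assembly factor lower. With the length trend removed 20 members were higher, 8 of them accessory and 1 in the ATP synthase, and with length and GC trends removed 7 accessory genes were. The cause was not tested.

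Leaving out 1 library gave 7 to 12 members higher and 26 to 31 lower, beside 19.85% to 20.75% and 19.87% to 20.55% of all genes; by class this was 2 to 5 core genes lower, 1 to 3 accessory genes higher, 0 to 1 complex I assembly factors higher and 0 to 2 lower, 0 to 1 complex II genes higher and 0 to 1 lower, 1 to 2 complex III subunits and 1 to 2 complex III assembly factors higher, and 1 to 4 complex IV genes higher.

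Replicate numbers did not pair the libraries: deviations of same-numbered libraries correlated at 0.0175, -0.0198 and -0.0223. With a replicate block, 12 members were higher and 32 lower, Cox7c being lost.

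Sums changed direction for complex I assembly factors without Ndufaf3 (log2 ratio -0.0013 from 0.025), complex II without Sdha (0.0088 from -0.0016) and cytochrome c with library size scaling (-0.0080 from 0.015). Complex II moved to -0.024 with that scaling and complex III assembly factors to 0.31 without Uqcc2. Genes that were not called reversed near 0: Ndufa2 (-0.00862 to 0.0962 with a library left out), Sdha (-0.0352 to 0.00202, likewise), Sdhc (-0.00442, length and GC), Uqcc2 (0.015, length), Cycs (-0.00797 library size, -0.0154 length, -0.0205 to 0.0399 with a library left out) and Cox7a2 (-0.016 library size, -0.00224 upper quartile, -0.00457 protein-coding only, -0.0261 to 0.0395 with a library left out). The read-through model of Atp5o, called lower, turned to 0.002505 with the length trend removed. Taken from raw counts, shares in the controls and after Nop16 siRNA were 99.9% and 99.93% for Cox4i1, 0.0998% and 0.0656% for Cox4i2, 0.797% and 1.87% for Cox7a1, 21.3% and 29.1% for Cox7a2, 77.9% and 69.05% for Cox7a2l, 9.39% and 11.6% for Atp5g1, 53.8% and 42.4% for Atp5g2, and 36.8% and 46.0% for Atp5g3. Shares from raw counts differ from those per kb because the paralogues differ in length. The direction from control to Nop16 siRNA was the same by both measures in each of these genes.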

Other observations

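The neighbours of Cox6a2 on chromosome 7, within 100 kb and chosen after their values were seen, moved in different directions. The integrin gene Itgax went from 193, 204 and 134 counts in the controls to 514, 581 and 519 after Nop16 siRNA (log2 fold change 1.96, SE 0.10, edgeR adjusted p = 4.165e-25). Itgam, the integrin alpha chain of the macrophage receptor Mac-1, rose by 0.50 (edgeR adjusted p = 1.233e-23). Itgad, whose span contains Cox6a2 on the opposite strand, had 2, 0 and 0 counts against 0, 1 and 1 and was not tested. Armc5 was not called (-0.11), and BC017158 fell by 0.24 (edgeR adjusted p = 0.01856). The non-coding 4931431B13Rik, on the same strand as Cox6a2, had 2, 3 and 1 counts in the controls and none after Nop16 siRNA, at or below the floor.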
